A study of Mus musculus with 12 samples.

Results

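Of 53 listed genes that interferon switches on or that sense foreign RNA, 1 was called higher and none lower after deletion of Dnmt1 in the epithelium of the mouse urogenital sinus. The genes were chosen by name, as rows of a table of expected counts, 51 of the 53 were found among its 20308 genes, and 36 passed the filter on low counts and were tested. Mx1 and Oas1b are not analysed here. The called gene was Samd9l, an antiviral restriction factor, which stood at 10.1 to 28.8 CPM (counts scaled to the library total, per 1e6) in the Dnmt1cKO libraries and at 0 in 3 of 4 Control libraries. Another 8 members, among them the RNA sensor Ifih1 and the class I antigen presentation genes B2m, H2-K1 and H2-D1, were higher at an unadjusted p under 0.05 and did not pass the adjusted threshold. No member was lower at that level. Among all 12761 genes tested, 1.03% were called higher and 1.55% were called lower. The unadjusted level was reached by 8.19% of these genes in the upward direction and by 9.54% in the downward one. No transcript of interferon beta was counted in any library.

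Interferons are secreted proteins that cells release once sensors detect foreign nucleic acid. RNA sensors such as MDA5 (the product of Ifih1) and RIG-I (the product of Ddx58) signal through the adaptor MAVS to induce interferon, which then acts through its receptor and factors such as STAT2 and IRF9 to induce antiviral effectors and antigen presentation genes. In cancer cells treated with inhibitors of DNA methyltransferases, double-stranded RNA from endogenous retroviruses is known to induce such genes, and the question here was whether loss of the maintenance methyltransferase in an embryonic epithelium was accompanied by such a response. The 8 Dnmt1cKO libraries came from C57BL/6J embryos at day 15.5 with Dnmt1 deleted by a Cre driven by Shh, which is expressed in this epithelium, and the 4 Control libraries came from wildtype embryos of the same strain and age. Tissue was freed from stroma with trypsin, and several embryos were pooled for each harvest batch. The C57BL/6 background is known to carry a defective Mx1 gene and a truncated Oas1b, so neither protein is functional in these mice. Because this is RNA of a bulk tissue, more cells that express a gene and more RNA per cell cannot be told apart.

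The libraries differed in depth, and the shallowest were Controls. Totals were 4007498 to 11970876 counts in the Dnmt1cKO libraries and 7577669, 2915169, 1613495 and 543570 counts in Controls 1 to 4, so that Control 1 held 59.9% of all Control counts. Dnmt1 stood at 22.8 to 97.0 CPM (median 50.7) in the Dnmt1cKO libraries and at 164, 114, 237 and 2.84 CPM in Controls 1 to 4. The last value was 1 count and lower than in any Dnmt1cKO library, which is not the level that a Control label implies. That library was also the shallowest, and 47.7% of all genes tested had no count in it. Whether the label or the depth accounts for the Dnmt1 value was not tested. The library is therefore called here the library labelled Control 4. The log2 fold change of Dnmt1 was -1.29 ± 0.63 (SE) and did not pass edgeR's quasi-likelihood test (BH-adjusted p = 0.284, where BH stands for Benjamini-Hochberg, computed across every tested gene). Epcam, which marks epithelium, was at 528 to 949 CPM in the Dnmt1cKO libraries and at 515 to 808 CPM in the Control libraries. The 13 stroma markers summed to 281 to 6510 CPM in Dnmt1cKO and to 1325 to 10990 CPM in Control, with a lower fitted level in Dnmt1cKO for each of the 13, of which 6 had an unadjusted p under 0.05 and 0 were called. Col1a1, a stromal collagen, was at 57.6 to 1696 CPM in Dnmt1cKO and at 810 to 3912 CPM in Control. Of 17 tested genes that tissue dissociation is known to induce, 7 were higher and 2 lower in Dnmt1cKO at that level, against 8.19% and 9.54% of all genes. Of these 17, 1 was called higher, against 1.03% of all genes. Ier3 and Atf3, which are among the 7, had 0 and 1 Control counts and could pass the filter only by being higher in Dnmt1cKO. The part of stroma, depth and dissociation in the members' results was not tested beyond the values given beside them.

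Fewer members were counted in the shallower libraries. At least 1 count was found for 42, 24, 50, 40, 44, 41, 36 and 37 of the 51 members in Dnmt1cKO 1 to 8, and for 34, 23, 20 and 8 members in Controls 1 to 4. Over the pooled libraries of a group, the limit that a count of 0 allows (3 counts) was 0.0398 CPM in Dnmt1cKO and 0.235 CPM in Control, but within the library labelled Control 4 it was 8.53 CPM. Of the 36 members that passed the filter on low counts, 77.8% had no count in that library, against 47.7% of all 12761 genes tested. Bounds on a fold change against Controls at 0 therefore rest mainly on Control 1. The labels mention no molecular identifiers, so floors, bounds and intervals cover counting error only. They leave out variation between libraries.

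**Figure D1:**
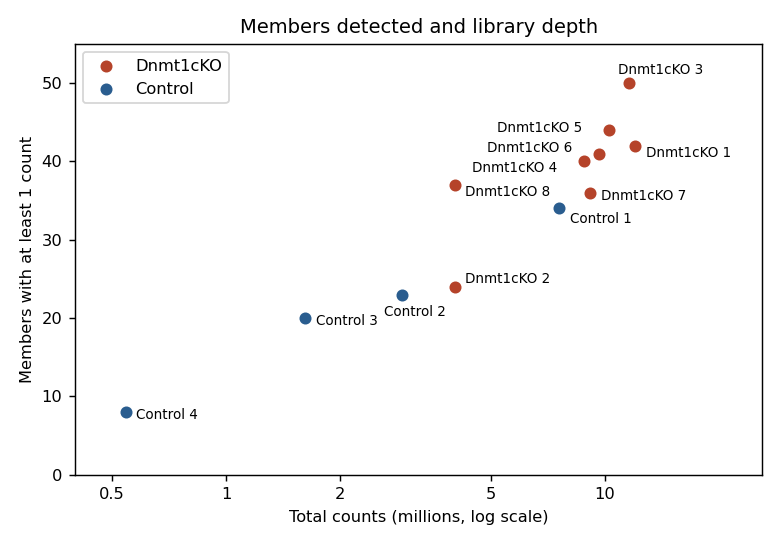
Number of the 51 members with at least 1 count against the total counts of each library (x axis, log scale), Dnmt1cKO in red and Control in blue. The 3 lowest counts of members, 8, 20 and 23, belong to the Control libraries with the lowest totals, and Dnmt1cKO 2 with 24 members lies beside them.

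The promoters of the members are shown here because the element that interferon acts through lies in them. Interferon type I signalling ends at the interferon-stimulated response element, searched here on both strands as GAAA, any 2 bases, and GAAA again, and interferon gamma signalling at the gamma-activated site, searched as TTCNNNGAA, which reads alike on both strands. RefSeq (GRCm38.p6) held 50 promoters for 42 members, each from 250 bases before to 50 bases after a start site. The response element matched in 40.0% of the 50 member promoters, against 3.44% of all 32851 mouse promoters of this length. The gamma-activated site matched in 24.0% of member promoters, against 8.3% of all. By role, the response element was found for 6 of 8 RNA sensors, 12 of 21 antiviral effectors, 1 of 7 signalling factors (Stat2) and 1 of 6 antigen presentation genes (B2m). It was found for 5 of the 9 members with an unadjusted p under 0.05 and for 12 of 24 other tested members with a promoter. CpG dinucleotides, the sites of DNA methylation, numbered 7.5 per 300 bases in the median member promoter, against 7 in the median of all promoters.

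The 250 bases before the start site follow for 5 members with an unadjusted p under 0.05 and for Isg15, a typical interferon target that was chosen for its triple match after its values were seen. Irf1, H2-K1 and H2-D1, which also had an unadjusted p under 0.05, are not printed and had no match in their promoters. Capitals mark matches to the response element in either orientation, and the sequences run 5′ to 3′ on the strand of the gene.
Samd9l (chr6:3399572-3399821, minus strand): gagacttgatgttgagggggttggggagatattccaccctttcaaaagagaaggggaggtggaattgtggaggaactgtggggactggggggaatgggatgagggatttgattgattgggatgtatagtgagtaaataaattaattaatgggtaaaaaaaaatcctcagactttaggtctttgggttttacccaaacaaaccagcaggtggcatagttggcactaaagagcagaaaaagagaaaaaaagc
Ifit1 (chr19:34640639-34640888, plus strand): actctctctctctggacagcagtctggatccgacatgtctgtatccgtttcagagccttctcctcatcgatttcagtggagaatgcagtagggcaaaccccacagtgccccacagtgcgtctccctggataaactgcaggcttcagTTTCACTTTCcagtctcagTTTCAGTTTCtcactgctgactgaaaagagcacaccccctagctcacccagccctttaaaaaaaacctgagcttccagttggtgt
Ifit3 (chr19:34583279-34583528, plus strand): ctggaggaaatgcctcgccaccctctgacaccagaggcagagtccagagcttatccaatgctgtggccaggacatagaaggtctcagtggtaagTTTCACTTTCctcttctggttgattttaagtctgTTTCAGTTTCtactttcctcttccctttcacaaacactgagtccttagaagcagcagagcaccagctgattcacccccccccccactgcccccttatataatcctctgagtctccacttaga
Oas1a (chr5:120907526-120907775, minus strand): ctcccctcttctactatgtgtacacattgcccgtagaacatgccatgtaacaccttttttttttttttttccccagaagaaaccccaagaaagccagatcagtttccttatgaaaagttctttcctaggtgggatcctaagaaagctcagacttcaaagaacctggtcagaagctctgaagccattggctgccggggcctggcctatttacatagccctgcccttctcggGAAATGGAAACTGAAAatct
Isg15 (chr4:156200819-156201068, minus strand): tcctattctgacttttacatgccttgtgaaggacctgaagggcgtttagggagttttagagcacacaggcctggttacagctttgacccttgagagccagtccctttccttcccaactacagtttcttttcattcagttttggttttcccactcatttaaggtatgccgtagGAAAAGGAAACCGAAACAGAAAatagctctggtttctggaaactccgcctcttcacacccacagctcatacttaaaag
B2m (chr2:122147437-122147686, plus strand): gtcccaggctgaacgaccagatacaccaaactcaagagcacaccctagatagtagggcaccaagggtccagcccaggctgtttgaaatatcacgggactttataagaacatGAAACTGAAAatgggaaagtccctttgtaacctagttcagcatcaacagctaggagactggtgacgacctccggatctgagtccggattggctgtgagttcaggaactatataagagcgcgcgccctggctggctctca
Samd9l, the called member, had no match and no CpG in these 250 bases, which says only that these letters are not in this window. Ifit1 carried matches that begin 104 and 85 bases before the start, and Ifit3 matches that begin 156 and 122 bases before it. The matches of Oas1a overlapped each other, beginning 20 and 14 bases before the start, as did those of Isg15 at 78, 72 and 66 bases. B2m had 1 match, which begins 139 bases before the start. The match of Ifih1 lay inside its transcript, from base 33 on, and is shown with the 8 bases on either side:
Ifih1 site (chr2:62646206-62646231, minus strand): agagaatcGAAACAGAAAccgatctg

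The counts that follow describe the 36 members that passed the filter, and a member counted almost only in Dnmt1cKO could pass only by being higher there. No Control count was found for 3 of them, or 8.33%, against 2.77% of all genes tested, and at most 3 Control counts for 6. The log2 fold change was positive for 27 of the 36, while 57.3% of all genes tested were positive, and its median was 0.675 over the members and 0.217 over all genes. The members with no Control count also lie above that median at the lower bounds given below. With the stroma level as a covariate the median was 0.462 over the members and 0.398 over all genes, and 6 members, without B2m, H2-K1 and H2-D1, had an unadjusted p under 0.05 in the higher direction and 2 in the lower. Of the tested members, 1 was called higher (edgeR, BH-adjusted p under 0.05), against a background of 132 genes or 1.03%, and 0 were called lower, against 198 genes or 1.55%. At an unadjusted p under 0.05, 9 members were higher, against 8.19% of all genes, and 0 were lower, against 9.54%. In DESeq2, 4 members were called higher, which were Samd9l, Ifih1, Oas1a and H2-K1, against 3.82% of genes, and 1 was called lower, Eif2ak2, against 8.07%. Limma-voom with quality weights called 0 members higher, against 0.0549% of genes, and 0 lower, against 0.196%. The median log2 fold change was 2.11 for the 5 tested RNA sensors, 1.34 for the 5 antigen presentation genes, 0.621 for the 17 antiviral effectors and 0.139 for the 9 signalling factors.

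Without Control 3 and the library labelled Control 4, whose depth was lowest, 45 members could be tested and 2 were called higher, Samd9l and H2-D1, against 0.322% of the 13990 genes tested, and 0 were called lower, against 0.0143%. In that fit 7 members were higher at an unadjusted p under 0.05, against 6.96% of genes, 0 were lower, against 2.22%, and 29 of 45 were positive, against 57.2%. The role medians in that fit were 3.29 for RNA sensors, 1.69 for antigen presentation genes, 1.22 for antiviral effectors and -0.19 for signalling factors, the last negative where it was positive with all libraries. The descriptions of the libraries also carry codes from 2 to 7, of which 4, 5, 6 and 7 occur in both groups, with Control 1, 2, 3 and 4 as the only Control library of each in turn, so codes 6 and 7 rest on the 2 shallowest libraries. Within these codes, the Dnmt1cKO level was higher than the Control level for 29, 19, 29 and 34 of the 36 tested members, or 80.6%, 52.8%, 80.6% and 94.4%. The same shares over all genes tested were 48.5%, 56.0%, 64.7% and 78.4%. Within code 5, therefore, the share of members was below that of all genes. Higher in all 4 codes were 12 members or 33.3%, against 18.2% of all genes.

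**Figure D2:**
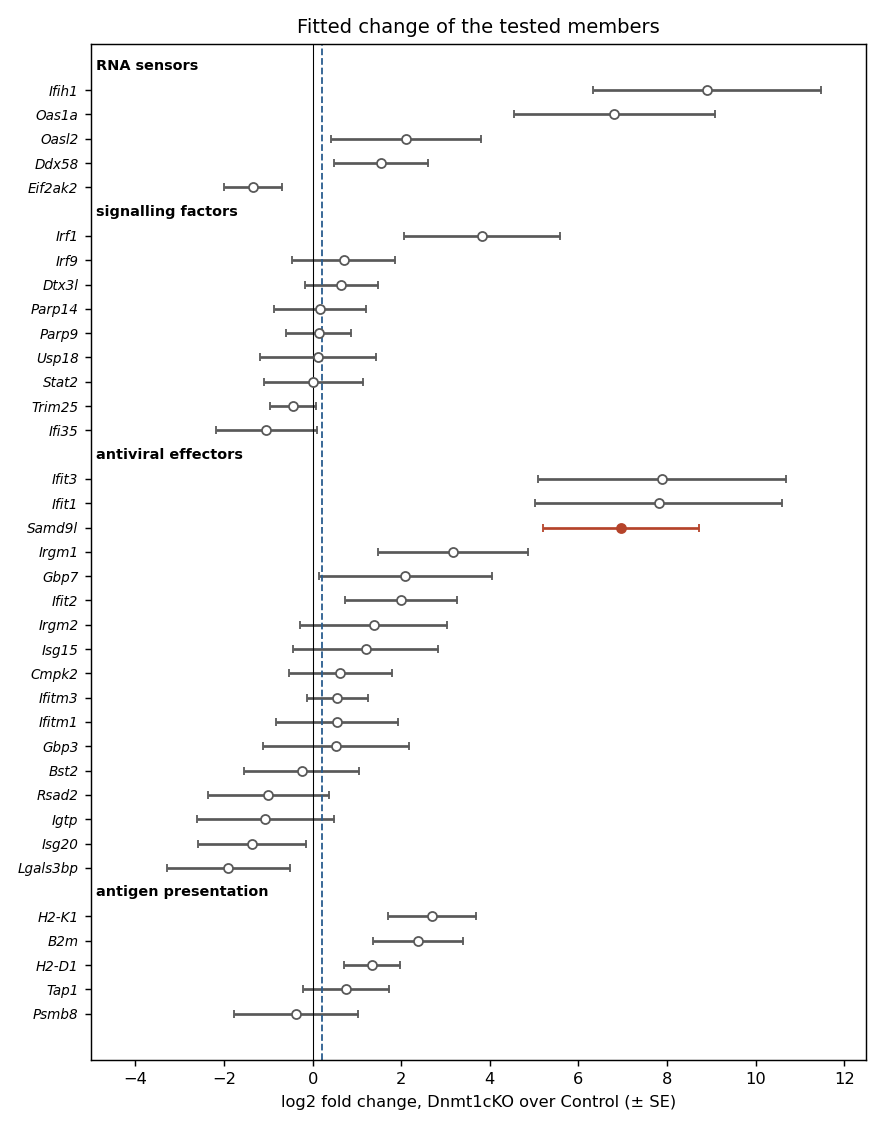
Fitted log2 fold change of Dnmt1cKO over Control (x axis, bars ± SE) for the 36 tested members, by role. The filled red point is Samd9l, the called member, open points are not called, and the dashed line is the median of all genes at 0.217. Ifih1, Oas1a, Ifit1, Ifit3 and Samd9l lie above 6 with wide errors, and most signalling factors lie near 0.

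The RNA sensors had the highest median of the roles but no called member. That median covers only the 5 of 11 sensors that passed the filter. Ifih1 and Oas1a, with 0 and 1 Control counts, could pass it only by being higher in Dnmt1cKO, so the ranking is partly set by the filter. Ifih1, whose product MDA5 binds long double-stranded RNA, ranged from 0 to 21.7 CPM (median 8.24) in the Dnmt1cKO libraries, against 0 in each of the 4 Control libraries. Only Dnmt1cKO 2 held no count, and the highest value was in Dnmt1cKO 8. On pooled counts, Ifih1 was at least 30.9-fold higher in Dnmt1cKO, taking 3 counts over all Control libraries as the floor (fitted log2 fold change 8.89 ± 2.57, edgeR, BH-adjusted p = 0.0554). It passed in DESeq2 (adjusted p = 0.0032), with DESeq2-style size factors in edgeR (BH-adjusted p = 0.0388) and without Dnmt1cKO 2 (edgeR, BH-adjusted p = 0.0251), and the range over its alternatives was 0.0032 to 0.875.

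Oas1a encodes an oligoadenylate synthetase that makes the activator of RNase L when it binds double-stranded RNA. It ranged from 0 to 29.4 CPM (median 3.74) in the Dnmt1cKO libraries, against 0.12, 0, 0 and 0 CPM in Controls 1 to 4. Dnmt1cKO 2 and 8 were highest at 27.2 and 29.4 CPM, while Dnmt1cKO 4 and 5 were at 0. The Control value was 1 count, which gave a ratio of 68.7 with a counting interval of 12.3 to 2720 (exact, 95%), and the fitted log2 fold change was 6.81 ± 2.26 (edgeR, BH-adjusted p = 0.098). Oas1a and Oas1g are close copies on chromosome 5 that can share reads, so the split between them is uncertain.

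Ddx58 and Eif2ak2 were the RNA sensors with the highest mean CPM. Ddx58, which encodes RIG-I, ranged from 0.22 to 63.4 CPM (median 39.0) in Dnmt1cKO, against 18.8, 24.6, 1.51 and 0 CPM in Controls 1 to 4, and the groups overlapped because Dnmt1cKO 2 and 8 were low. Its log2 fold change was 1.55 ± 1.05 (edgeR, BH-adjusted p = 0.481). Eif2ak2, which encodes the kinase PKR that halts translation on binding double-stranded RNA, ranged from 32.3 to 66.9 CPM (median 47.6), against 40.7, 77.2, 5.28 and 407 CPM in Controls 1 to 4. The library labelled Control 4 was far above all others and Control 3 below all others. The fitted log2 fold change of Eif2ak2 was -1.35 ± 0.66 (edgeR, BH-adjusted p = 0.284) with all libraries and 0.378 without the library labelled Control 4. Of the other sensors, Oasl2 was tested (log2 fold change 2.11 ± 1.69), and Dhx58, Zbp1, Oas1g, Oas2, Oas3 and Oasl1 did not pass the filter.

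**Figure D3:**
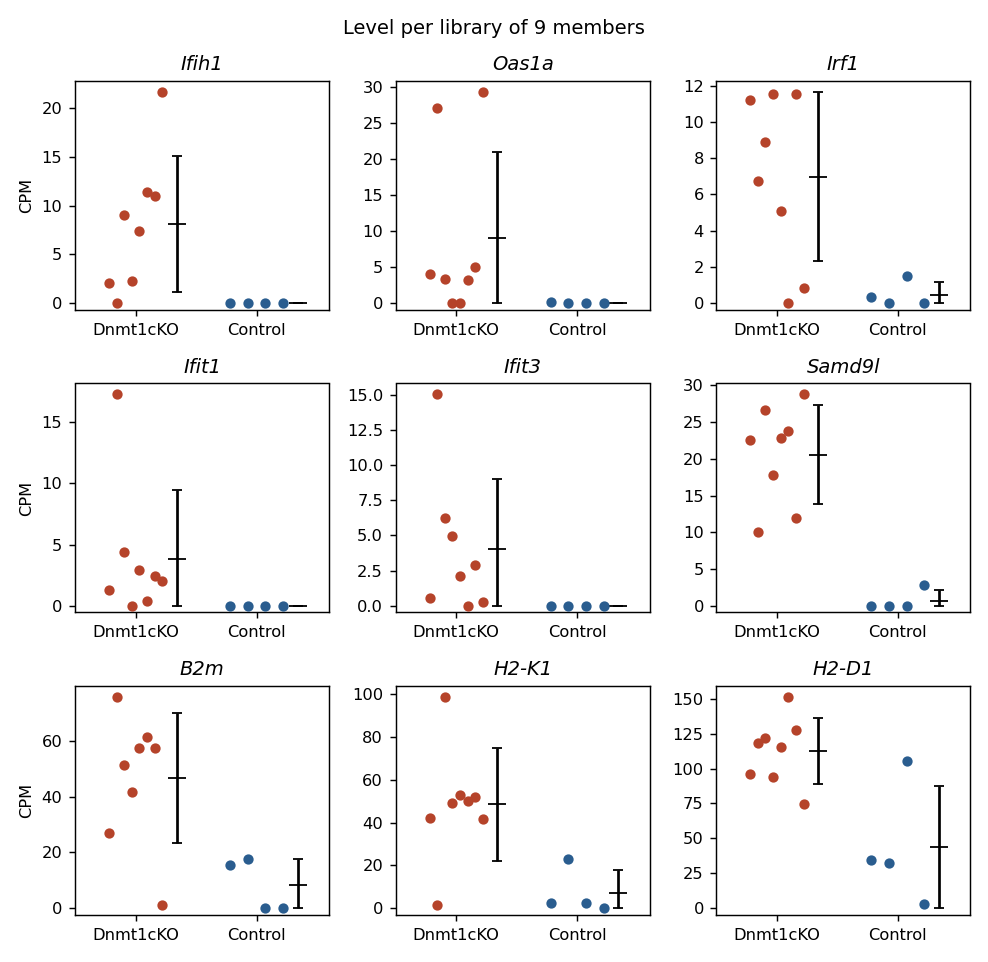
CPM per library (y axis) of the 9 members with an unadjusted p under 0.05, Dnmt1cKO in red and Control in blue, with the mean and SD beside the points (bars end at 0 where the SD reaches below it). Samd9l is the only one of the 9 without overlap, its lowest Dnmt1cKO value of 10.1 CPM lying above the highest Control value of 2.84 CPM, while Ifih1, Oas1a, Ifit1, Ifit3 and Irf1 have Dnmt1cKO libraries at 0.

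Among the signalling factors, Irf1 alone had an unadjusted p under 0.05. Irf1, a transcription factor that interferon gamma induces, ranged from 0 to 11.6 CPM (median 7.80) in the Dnmt1cKO libraries, against 0.37, 0, 1.51 and 0 CPM in Controls 1 to 4. In all, 6 Dnmt1cKO libraries were above every Control, and Dnmt1cKO 6 and 8 were not. The fitted log2 fold change was 3.81 ± 1.76 (edgeR, BH-adjusted p = 0.246).

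Trim25, a ubiquitin ligase that activates RIG-I, and Parp9, which works with the ligase Dtx3l, had the highest mean CPM of this role. Trim25 ranged from 81.6 to 140 CPM (median 109) in Dnmt1cKO, against 66.6, 78.9, 92.0 and 364 CPM in Controls 1 to 4. Its log2 fold change was -0.44 ± 0.51 (edgeR, BH-adjusted p = 0.71), but 0.653 without Control 3 and the library labelled Control 4 and 0.542 when the library labelled Control 4 alone was left out. Parp9 ranged from 25.9 to 54.1 CPM (median 38.6) in Dnmt1cKO, against 35.9, 64.1, 37.7 and 2.84 CPM in Controls 1 to 4, with a log2 fold change of 0.14 ± 0.73 (edgeR, BH-adjusted p = 0.948), or -0.27 without Control 3 and the library labelled Control 4. Parp9 and Dtx3l overlap in the annotation, and no source used here says if counting was stranded, so their levels are uncertain. Stat2 and Irf9, which encode subunits of the factor that binds the response element, had log2 fold changes of 0.01 ± 1.11 and 0.70 ± 1.16. Usp18, which dampens the interferon receptor, had 0.12 ± 1.31, and Irf7, the factor that amplifies interferon production, did not pass the filter, with counts in 3 Dnmt1cKO libraries and in 0 Control libraries.

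The antiviral effectors held the called member. Samd9l ranged from 10.1 to 28.8 CPM (median 22.7) in the Dnmt1cKO libraries, against 0, 0, 0 and 2.84 CPM in Controls 1 to 4. Every Dnmt1cKO library lay above every Control library, which held for 1 of the 36 tested members and for 2.59% of all genes, while 0 members and 0.486% of all genes lay wholly below. The only Control value above 0 was 1 count in the shallowest library, which gave a ratio of 269 with a counting interval of 48.2 to 10600 (exact, 95%). The log2 fold change was 6.96 ± 1.75 (edgeR, BH-adjusted p = 0.0239), and 10.5 without Control 3 and the library labelled Control 4 (edgeR, BH-adjusted p = 0.00622). The call was lost without Dnmt1cKO 1, 3 or 5 (log2 fold changes of 6.81, 6.77 and 6.82, edgeR, BH-adjusted p = 0.053, 0.0573 and 0.0539) and in limma-voom (6.66, adjusted p = 0.121), while its level was higher within each of the 4 shared codes.

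Ifit1 encodes a protein that binds the ends of foreign RNA, Ifit3 encodes a relative of it, and both are widely used readouts of type I interferon. Ifit1 ranged from 0 to 17.3 CPM (median 2.20) in the Dnmt1cKO libraries, against 0 in all 4 Control libraries. On pooled counts Ifit1 was at least 12.4-fold higher (fitted log2 fold change 7.82 ± 2.79, edgeR, BH-adjusted p = 0.13). Ifit3 ranged from 0 to 15.04 CPM (median 2.51), against 0 in all 4 Control libraries, and on pooled counts was at least 14.5-fold higher (fitted log2 fold change 7.88 ± 2.79, edgeR, BH-adjusted p = 0.127). Both were highest in Dnmt1cKO 2, at 17.3 and 15.04 CPM, where the next library stood at 4.39 and 6.24 CPM. Ifit2, their neighbour on chromosome 19, had a log2 fold change of 1.99 ± 1.27 and was detected in all 8 Dnmt1cKO and in 2 Control libraries.

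Ifitm3, which blocks virus entry at membranes, was counted in all 12 libraries and had the highest mean CPM of the effectors. It ranged from 23.6 to 76.4 CPM (median 54.3) in Dnmt1cKO, against 17.9, 40.8, 71.6 and 14.2 CPM in Controls 1 to 4, with a log2 fold change of 0.55 ± 0.69 (edgeR, BH-adjusted p = 0.73). Per kilobase of exon, Ifitm3 was also the most abundant member, at 78.8 CPM per kilobase in Dnmt1cKO and 53.3 in Control. The classic effectors were low: Isg15, a ubiquitin-like modifier, had a median of 1.03 CPM in Dnmt1cKO and 3.57, 0, 0 and 0 CPM in Controls 1 to 4. Isg15 was detected in all 8 Dnmt1cKO and in 1 Control library, with its highest value, 14.55 CPM, in Dnmt1cKO 8. Its log2 fold change was 1.19 ± 1.65 (edgeR, BH-adjusted p = 0.757). The antiviral Rsad2, Bst2 and Lgals3bp each stood highest in Control 3, at 24.9, 42.2 and 48.3 CPM, and had negative fitted log2 fold changes of -1.01 ± 1.37, -0.25 ± 1.30 and -1.90 ± 1.39. In Control 3 the 17 immune cell markers also summed highest, to 486 CPM, with Csf1r at 82.9 CPM but Ptprc at 0.75 CPM. The 13 stroma markers (10990 CPM) and the 9 markers of erythroid (red blood) cells (5826 CPM) summed highest there too. The source of these values was not tested. Igtp and Irgm2, which overlap in the annotation, and Gbp3 and Gbp7, which belong to a family of similar copies, are uncertain.

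Of the effectors, Ifi44, Ifi27l2a, Mx2, Rtp4, Xaf1, Sp100 and Gbp2 did not pass the filter. Together with the 6 sensors named above, Irf7 and Psmb9, 15 members were not tested, and 9 of them had no Control count. Their highest value was 18.8 CPM in a Dnmt1cKO library, for Irf7 in Dnmt1cKO 8, and 1.97 CPM in a Control library.

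**Figure D4:**
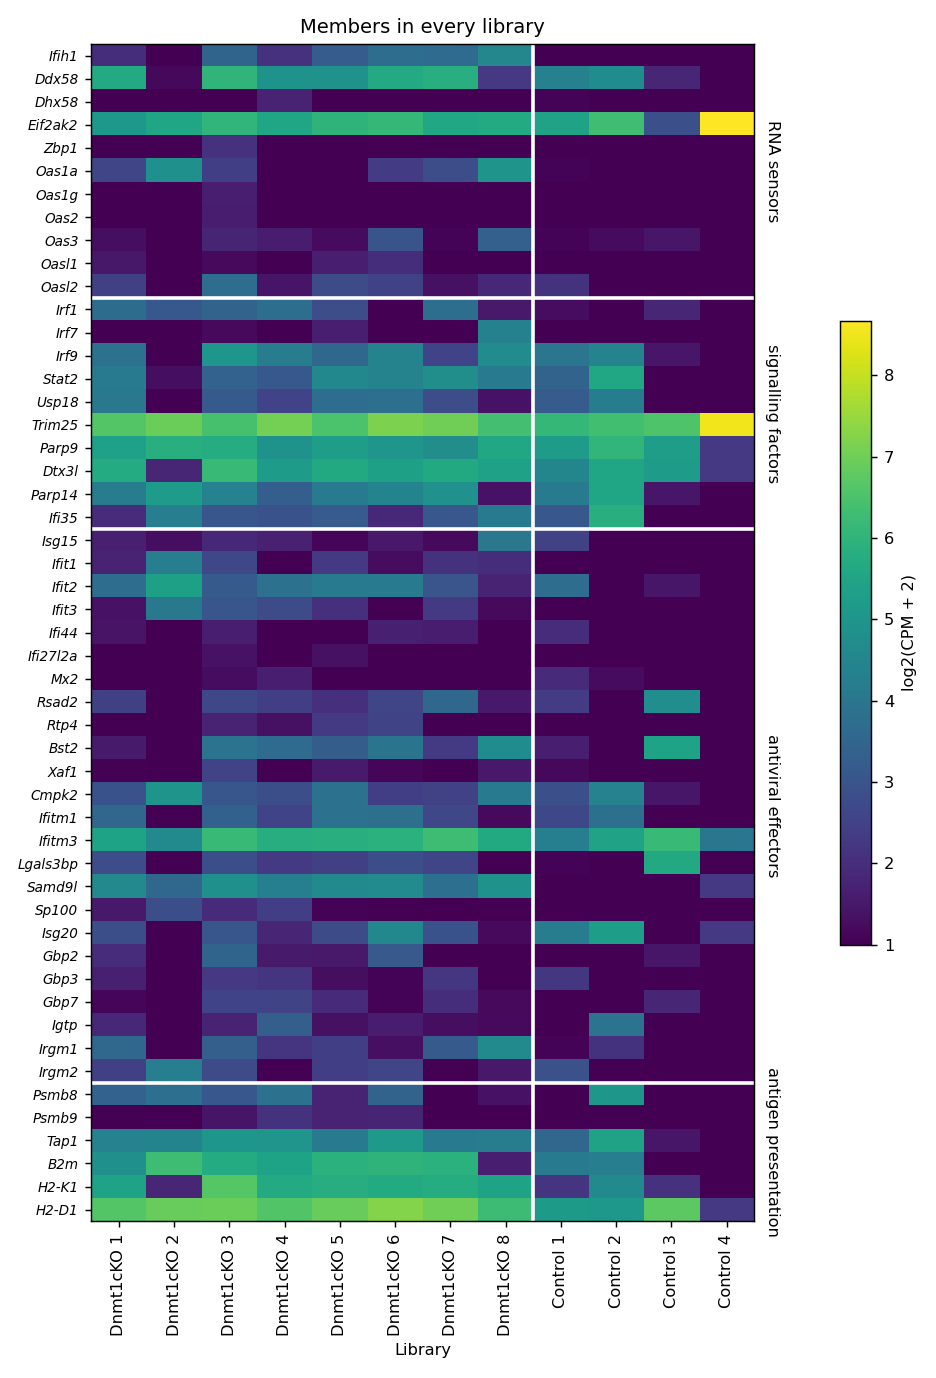
Level of the 51 members (rows, by role) in each library (columns, 8 Dnmt1cKO libraries left of the 4 Control libraries) as log2(CPM + 2), from dark (0 CPM) to yellow. The 6 members Eif2ak2, Trim25, Parp9, Dtx3l, Ifitm3 and H2-D1 were counted in every library, whereas most effectors are dark in the Control libraries and in several Dnmt1cKO libraries, and Eif2ak2 and Trim25 are brightest in the library labelled Control 4.

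In antigen presentation, 3 of 5 tested members were higher at an unadjusted p under 0.05, against 8.19% of all genes, and none was called. Without Control 3 and the library labelled Control 4 it was 1 of 6, against 6.96% of all genes. B2m, the light chain of class I molecules, ranged from 1.141 to 75.9 CPM (median 54.2) in the Dnmt1cKO libraries, against 15.5, 17.5, 0 and 0 CPM in Controls 1 to 4. In all, 7 Dnmt1cKO libraries were above every Control, and Dnmt1cKO 8 was not. The log2 fold change was 2.37 ± 1.02 (edgeR, BH-adjusted p = 0.211).

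H2-K1 and H2-D1 encode the class I heavy chains that display peptides. H2-K1 ranged from 1.57 to 99.0 CPM (median 49.7) in Dnmt1cKO, against 2.46, 22.9, 2.26 and 0 CPM in Controls 1 to 4, and all Dnmt1cKO libraries except Dnmt1cKO 2 were above every Control. Its log2 fold change was 2.70 ± 0.998 (edgeR, BH-adjusted p = 0.142), and it was called without Control 2 (edgeR, BH-adjusted p = 0.0258) and in DESeq2 (adjusted p = 0.0248). H2-D1 ranged from 74.7 to 152 CPM (median 117) in Dnmt1cKO, against 34.2, 32.4, 106 and 2.84 CPM in Controls 1 to 4, and the groups overlapped because Control 3 was high. The log2 fold change was 1.34 ± 0.63 (edgeR, BH-adjusted p = 0.261) with all libraries, 2.18 without Control 3 (edgeR, BH-adjusted p = 0.0487) and 1.82 without Control 3 and the library labelled Control 4 (edgeR, BH-adjusted p = 0.0246). B2m and H2-K1 had unadjusted p-values of 0.0891 and 0.0637 in that last fit. H2-K1 and H2-D1 are similar enough to share reads, so the split between them is uncertain. Tap1, a peptide transporter, and Psmb8, an immunoproteasome subunit, had log2 fold changes of 0.75 ± 0.97 and -0.37 ± 1.40, and Tap1 overlaps Psmb9 in the annotation.

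Class I genes and many effectors are also expressed by immune cells, whose markers were present at low levels. The 17 immune cell markers summed to 44.5 to 187 CPM (median 88.1) in the Dnmt1cKO libraries and to 42.3 to 486 CPM in the Control libraries, and the T cell and B cell markers Cd3e and Cd79a were at 0 in all 12. The median log2 fold change was 1.02 over the 12 immune markers tested, of which 7 were positive. Without Control 3 and the library labelled Control 4 it was 1.47 over 14, of which 13 were positive. Ptprc, which encodes the pan-leukocyte CD45, was at 0 to 29.4 CPM in Dnmt1cKO, against 6.15, 0, 0.75 and 0 CPM in Controls 1 to 4, and Csf1r, a macrophage receptor, was at 0.29 to 22.5 CPM, against 0, 33.0, 82.9 and 0 CPM. Both were high in Dnmt1cKO 2, at 29.4 and 22.5 CPM, while in Dnmt1cKO 8 Ptprc stood at 17.1 and Csf1r at 0.29 CPM. The 10 endothelial markers summed to 9.90 to 106 CPM in Dnmt1cKO and to 59.3 to 310 CPM in Control, with a median log2 fold change of -1.39 over the 9 tested, of which 4 were lower at an unadjusted p under 0.05. Pecam1, one of those not lower at that level, was at 1.65 to 21.4 CPM in Dnmt1cKO, against 8.24, 13.8, 1.51 and 0 CPM in Controls 1 to 4. The part of immune cells in these results was not tested. With the stroma level as a covariate, Samd9l was called (log2 fold change 6.55, edgeR, BH-adjusted p = 0.0373), and B2m, H2-K1 and H2-D1 had log2 fold changes of 2.23, 2.06 and 1.53 (edgeR, BH-adjusted p = 0.371, 0.432 and 0.415).

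The interferons themselves were at or near 0. Ifnb1, Ifna1, Ifna2, Ifna4, Ifnk, Ifnl2, Ifnl3 and Ifng had 0 counts in all 12 libraries, which allows a mean level of up to 0.034 CPM over them. Ifne, an interferon of reproductive tract epithelium, and Ifnz had 21 and 3 counts, all of them in Dnmt1cKO 7 for Ifne and in Dnmt1cKO 5 for Ifnz, and 0 in every other library. Transcripts of the receptor were present: Ifnar1 ranged from 12.8 to 84.0 CPM in Dnmt1cKO, against 41.1, 7.08, 59.6 and 8.53 CPM in Controls 1 to 4 (log2 fold change 0.97 ± 0.74, edgeR, BH-adjusted p = 0.535). Ifnar2 ranged from 0.90 to 38.4 CPM, against 9.71, 0.67, 0 and 0 CPM (log2 fold change 1.89 ± 1.31, edgeR, BH-adjusted p = 0.489). None of the 6 receptor genes tested had an unadjusted p under 0.05.

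Of the genes between sensing and response, none was called in either direction. Among the 18 tested sensing adaptors and kinases, 4 were higher at an unadjusted p under 0.05, against 8.19% of all genes, and 0 were lower, against 9.54%. Tmem173 and Ifi204, which are among these 4, had no Control count and could pass the filter only by being higher in Dnmt1cKO. The count is therefore partly set by the filter. Tmem173, which encodes the DNA-sensing adaptor STING, ranged from 0 to 15.8 CPM (median 5.71) in Dnmt1cKO, against 0 in all 4 Control libraries. On pooled counts Tmem173 was at least 30.8-fold higher (fitted log2 fold change 8.60 ± 2.59, edgeR, BH-adjusted p = 0.0664). Traf3, a ligase downstream of MAVS, ranged from 51.3 to 114 CPM, against 27.8, 44.5, 1.51 and 0 CPM, with every Dnmt1cKO library above every Control, as for 2.59% of all genes (log2 fold change 1.96 ± 0.80, edgeR, BH-adjusted p = 0.185). Ikbke, a kinase that activates interferon regulatory factors, had a log2 fold change of 2.37 ± 1.08. Ifi204, a DNA-binding sensor, was at 0 in all 4 Control libraries and on pooled counts at least 13.9-fold higher in Dnmt1cKO. Mavs, the adaptor of MDA5 and RIG-I, ranged from 0.86 to 21.6 CPM (median 6.86), against 5.66, 0.34, 0 and 0 CPM (log2 fold change 2.25 ± 1.39, edgeR, BH-adjusted p = 0.422).

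In receptor signalling, Tyk2, a kinase of the type I receptor, ranged from 8.86 to 36.5 CPM in Dnmt1cKO, against 7.01, 0, 1.51 and 0 CPM in Controls 1 to 4, also without overlap, against the same 2.59% (log2 fold change 2.77 ± 1.23, edgeR, BH-adjusted p = 0.224). Of the 8 genes that keep a cell's own RNA and DNA from being sensed, Pnpt1, a mitochondrial exoribonuclease, had a log2 fold change of 1.80 ± 0.87 and Rnaseh2c, a subunit of RNase H2, one of -1.95 ± 0.57 (edgeR, BH-adjusted p = 0.269 and 0.0578). Rnaseh2c stood at 27.8 to 103 CPM in Dnmt1cKO, against 45.7, 80.9, 182 and 404 CPM in Controls 1 to 4. Adar, the RNA editor that masks double-stranded RNA, had a log2 fold change of 0.85 ± 0.93. Of 11 further antigen presentation genes, Erap1, a peptide-trimming peptidase, had an unadjusted p under 0.05 (log2 fold change 2.84 ± 1.21, edgeR, BH-adjusted p = 0.203). Without Control 3 and the library labelled Control 4, 0 of 12 tested receptor signalling genes had an unadjusted p under 0.05. Nor did any of the 8 genes that restrain sensing. In that fit 3 of 19 sensing adaptors and kinases were higher at that level, as were 2 of 11 further antigen presentation genes. Tmem173 and Ifi204 had no Control count in that fit either. The share over all genes was 6.96%.

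**Figure D5:**
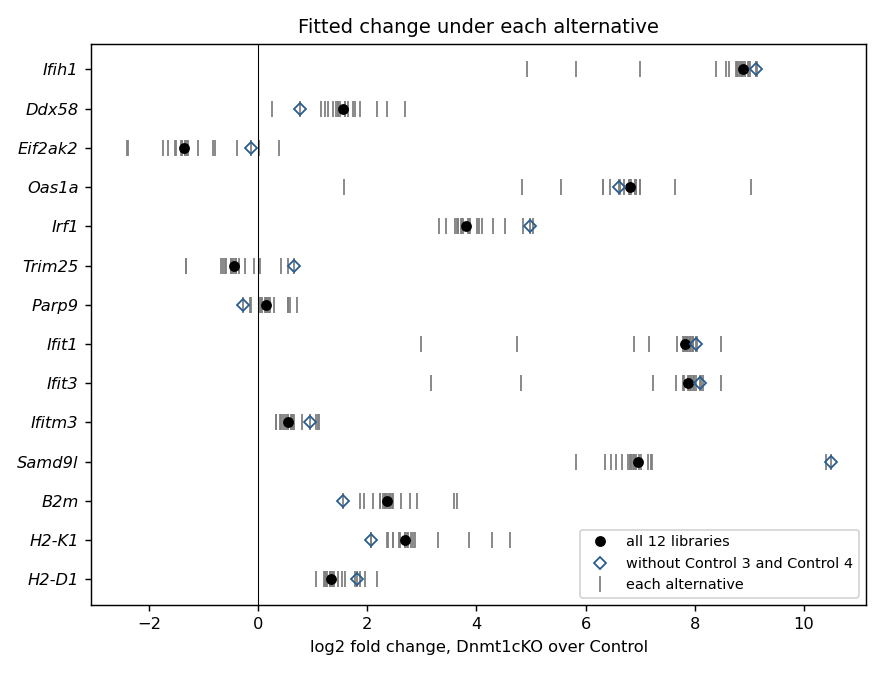
Fitted log2 fold change of Dnmt1cKO over Control (x axis) for 14 members under each alternative (grey ticks), with all 12 libraries (black) and without Control 3 and Control 4 (blue diamonds). Samd9l stays between 5.82 and 10.5, H2-D1 between 1.07 and 2.18, and Eif2ak2, Trim25 and Parp9 have values on both sides of 0.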

How the data were processed

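RNA was sequenced from 8 Dnmt1cKO and 4 Control libraries. The deposited table holds expected counts (estimated counts per gene symbol, in which reads that fit several genes are divided), made by the authors with RSEM 1.2.3, Bowtie 0.12.9 and bcl2fastq 2.17.1.14 on mm10, per the submitters' processing notes. No source used here gives mapping parameters or strand use. The expected counts were rounded and tested with edgeR 4.0.16 (quasi-likelihood F-test, R 4.3.3, TMM factors, filterByExpr at 10 counts and 15 in total, genotype as the only term, and Benjamini-Hochberg adjustment over 12761 genes). Adjusted p under 0.05 was called. CPM are counts per 1e6 of the TMM-adjusted library total, and log2 fold changes are Dnmt1cKO over Control with SE. The SE was derived from the test, as the size of the log2 fold change over the square root of its F statistic. For genes with no Control count, the fitted fold change and its SE depend on the prior count. Their bounds set the pooled Dnmt1cKO counts against 3 counts over the pooled Controls.

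DESeq2 1.42.0, limma 3.58.1 (voom), other scaling, filters, blocks, a stroma covariate and left-out libraries were alternatives. The fit was tested on simulated data. Gene coordinates and exon lengths come from GENCODE on mm10. Levels within codes are differences in log2(CPM + 2), a pseudocount of 2. Members, lists and tests were chosen with earlier results of these data known. Values per library are given for members called, with an unadjusted p under 0.05, without overlap between groups, or with the 2 highest mean CPM of a role. Other genes were named for their role, after their values were seen. The labels do not say which libraries come from separate pools, so p-values reflect only how these libraries vary. No 2 libraries matched within counting noise. Some results are not reported here.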

Additional observations from a re-analysis of the deposited data

Results flagged for a closer look

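Of 25 groups of per-library values examined, 6 held a library far from the others by Dixon's criterion. For independent, normally distributed values chance gives about 1 in 20. That rate need not hold for these CPM, many of which are 0, so the 6 are not an excess over chance. Ifit1 stood at 17.29 CPM and Ifit3 at 15.04 CPM in Dnmt1cKO 2, while the other Dnmt1cKO libraries ranged up to 4.394 and 6.244 CPM. Trim25 stood at 364.0 CPM in the library labelled Control 4, against 66.64 to 91.97 CPM in Controls 1 to 3. H2-K1 stood at 22.93 CPM in Control 2, against 0 to 2.459 CPM in the other Controls. Oas1a in Control 1 (0.1229 CPM) and Samd9l in the library labelled Control 4 (2.844 CPM) stood apart only because each was a single count beside 3 Controls at 0.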

How the results depend on the processing

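Members called higher numbered 4 in DESeq2, 2 with DESeq2-style (RLE) size factors (Ifih1 and Samd9l), 2 without Control 3 and Control 4, and 0 in limma-voom; members called lower numbered 1 in DESeq2. At an unadjusted p under 0.05, 4 members were higher in limma-voom, and 2 were lower in DESeq2, with RLE factors and with the stroma covariate. All genes called higher and lower numbered 487 and 1030 in DESeq2, 7 and 25 in limma-voom, and 45 and 2 without Control 3 and Control 4; genes called lower numbered 726 under RLE scaling and 47 under total-count scaling. The median log2 fold change of the members was 1.17 in limma-voom, 1.51 without a filter and 1.16 without Control 3 and Control 4. The median of all genes moved from 0.217 to 0.0723 with RLE factors and to 0.378 with library totals. Eif2ak2 turned to 0.0256 in limma-voom. Trim25 turned to 0.0315 with library totals, 0.415 in limma-voom and 0.653 without Control 3 and Control 4, and Parp9 turned to -0.129 in limma-voom and -0.27 without Control 3 and Control 4. The cause of these moves was not tested.

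When each library was left out in turn, members called higher ranged from 0 to 2, those higher at an unadjusted p from 7 to 12 and those lower from 0 to 1, the median from 0.594 to 1.77, and all genes called from 60 to 657 higher and from 36 to 494 lower. Samd9l ranged from 5.82 to 10.4, and it lost its call without Dnmt1cKO 1, 3 or 5. Eif2ak2 ranged from -1.74 to 0.378, Trim25 from -0.687 to 0.542 and Parp9 from -0.144 to 0.586, and all 3 turned without the library labelled Control 4. Members called beside Samd9l were Ifit2 without Control 1, H2-K1 without Control 2, H2-D1 without Control 3 and Ifih1 without Dnmt1cKO 2.

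No pairing of the libraries by title number or description code was seen. Same-number libraries had correlations of deviations of 0.096, 0.026, -0.052 and -0.033, and same-code ones of -0.052 to 0.061. Pairs that shared neither ranged from -0.08 to 0.1. The shallow Controls limit this check, so a shared batch is not excluded. With the title number as a replicate block, 0 members were called higher, 4 were higher at an unadjusted p, 34 genes were called higher and 31 lower, and the median was 1.96. With the code as a replicate block, 84 genes were called lower and the median was 2.52, against 1.07 over all genes. Depth limits the Controls most: a level below 2.26 CPM in Control 3 or 8.53 CPM in the library labelled Control 4 could not be told from 0.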
